A study of Sus scrofa with 2 samples.

Results

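The metalloproteinase genes of the ADAM, ADAMTS and MMP families, the ADAMTS-like (ADAMTSL) genes and the TIMP inhibitor genes were followed across the cell classes of pig longissimus dorsi, the long muscle of the back. The members were all features whose symbol begins with ADAM, ADAMTS, ADAMTSL, MMP or TIMP followed by a number, whatever their level. This gave 66 of the 21301 listed features: 20 ADAM, 19 ADAMTS, 5 ADAMTSL, 19 MMP and 3 TIMP genes. The data are droplet single-cell RNA sequencing of muscle cells from piglets of 2 breeds, Yorkshire and the small-eared spotted pig of Guangdong (GDSS), which differ in intramuscular fat. The labels name the cells intramuscular vascular stem cells, and 1 g of muscle was taken per piglet. Each breed had 1 library, both titles carry the tag P0, and the sources used here do not give the age, the number of piglets pooled or the meaning of P0. Breed, animal, preparation and library therefore cannot be told apart, and no difference below has a replicate check.

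MMPs are zinc-dependent endopeptidases that cleave collagens and other matrix proteins, most of them secreted and some anchored in the cell membrane. ADAMs are membrane proteins with a disintegrin and a metalloproteinase domain, and several of them shed the outer part of growth factors, cytokines and receptors. ADAMTS proteins are secreted and bind the matrix through thrombospondin repeats, their substrates include versican, aggrecan and procollagens, and ADAMTSL proteins share the repeats without the protease domain. TIMPs are secreted inhibitors of MMPs and of some ADAMs and ADAMTSs, and in muscle these families take part in matrix turnover around fibres, vessels and fat.

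After filtering, 10655 GDSS cells and 12690 Yorkshire cells were kept, with a median of 2881 and 3005 unique molecular identifiers (UMIs, each counting 1 captured transcript) per cell, and 47 barcodes were found in both libraries. Cells were gated on marker genes that are no members, and 8 classes had at least 50 cells in each library. The cells of the 1 labelled type thus fell into stromal, muscle, vascular, nerve and immune classes. FAP-like cells, the fibro-adipogenic stromal cells of muscle, accounted for 7478 GDSS cells (70.2% of that library) and 1807 Yorkshire cells (14.2%), satellite-like muscle stem cells for 4.02% and 38.3%, and endothelial-like cells for 1.75% and 11.1%. Tenocyte-like, mural-like, glia-like, macrophage-like and myofibre-gene cells each made up at most 5.09% of a library. Median UMIs per cell ranged from 1694 in GDSS myofibre-gene cells to 7658 in Yorkshire macrophage-like cells. Free RNA, estimated from the markers of other classes, stood at 0% to 5.84% of a gene's level over all cells of the library. Cells passing gates of classes that do not go together had been left out before, so these estimates can be too low. The 0% was that of GDSS myofibre-gene cells, a median over 58 markers in 77 cells. It does not show that free RNA was absent there. The next lowest estimate was 0.853%, in GDSS macrophage-like cells. Levels are a gene's UMIs scaled to the UMI total of the class in that library (CPM). Each transcript is tagged once at an end, so levels were not divided by gene length. Intervals are exact 95% intervals (Poisson for a level, conditional binomial for a fold, Clopper-Pearson for a share) and cover counting error only.

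Of the 66 members, 48 (72.7%) had at least 100 UMIs over both libraries, against 56.6% of all features. Another 15 had 1 to 99 UMIs, and 3 had none: the testis-type genes ADAM21 and ADAM30, and MMP20, the enamel protease. Members held 0.334% of all UMIs in GDSS and 0.279% in Yorkshire. TIMP1 alone held 40.7% of the member UMIs in GDSS and 49.8% in Yorkshire. MMP2, which encodes gelatinase A, held 23.9% and 8.89%. TIMP2 has no symbol of its own in the feature list and is not analysed here. Most of the family was thus low, and a pair of genes carried more than the other members together.

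Of the 46 members with at least 100 UMIs in the compared classes, 35 had their highest level in the same class in both libraries, where 54.2% of all features did so. In 19 of the 46 that class stood at least 2-fold above the next in both libraries, where 14.7% of all features did so. FAP-like cells led 10 of the 35 members, mural-like cells 8, glia-like and tenocyte-like cells 5 each, macrophage-like cells 4 and endothelial-like cells 3. The lead was at least 2-fold in both libraries for 6 members in FAP-like cells. It was so for 3 each in mural-like, glia-like and endothelial-like cells, and for 2 each in tenocyte-like and macrophage-like cells. Some of the smaller leads lay within counting error, as for TIMP3 below. Satellite-like and myofibre-gene cells led none in both libraries. The leading classes of both libraries were found again for 35 of the 46 members with clusters made without the members in place of gates, for 37 with stricter gates, and for 36 of the 43 that could be read with at most 5% mitochondrial UMIs.

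**Figure D1:**
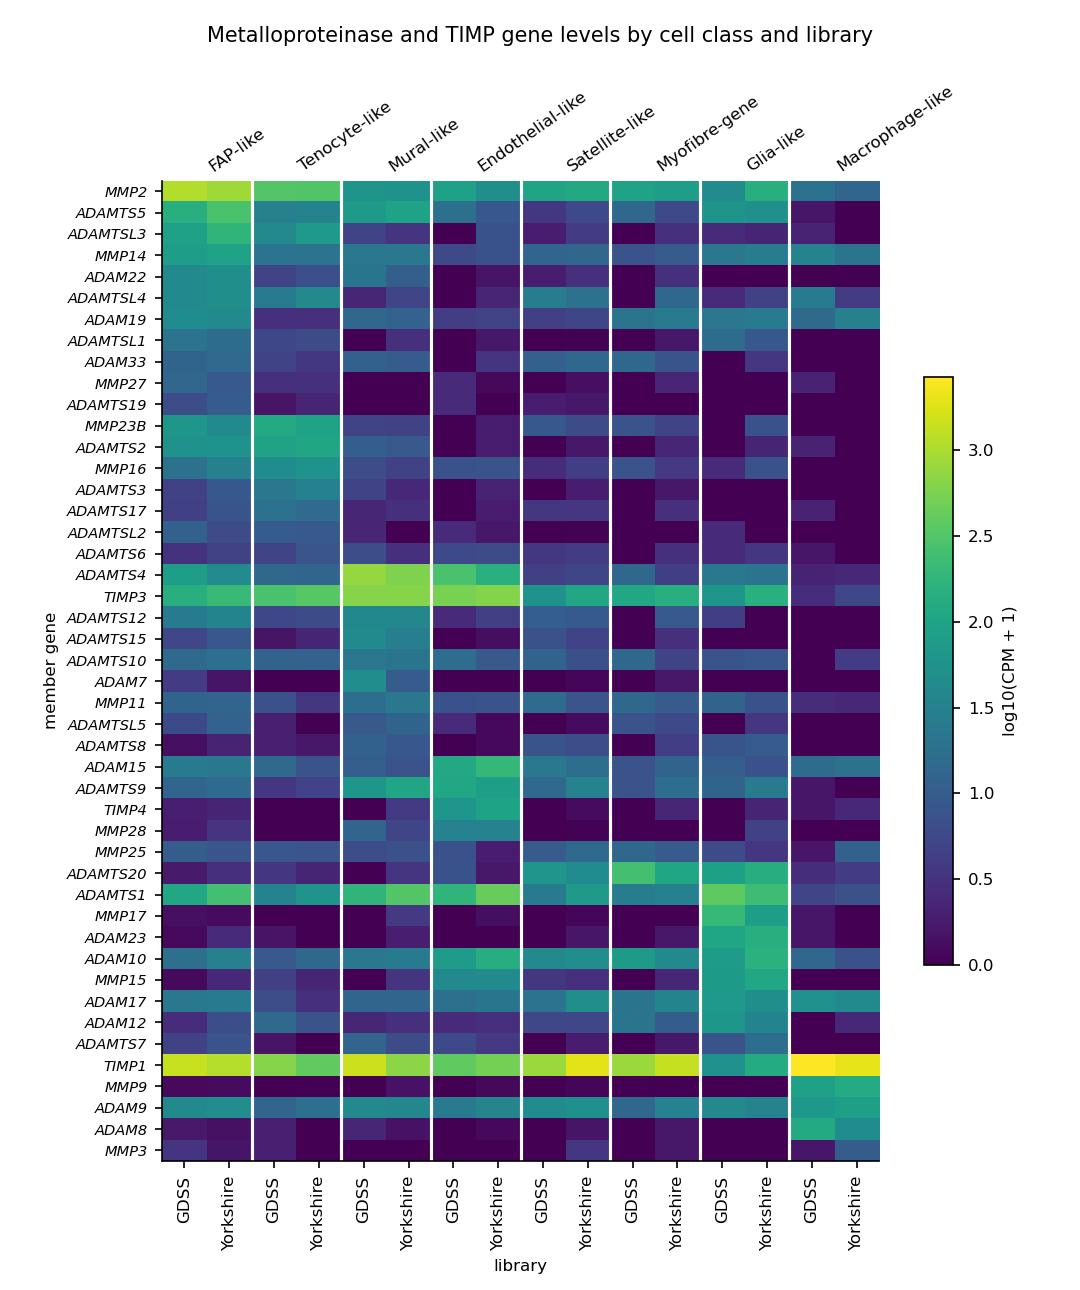
Level of each of the 46 members with at least 100 UMIs in the compared classes, as log10(CPM + 1) in colour, with members as rows and, for each class, the GDSS and the Yorkshire library as columns. TIMP1 is bright in every class except glia-like cells, MMP2 stands out in FAP-like cells, and MMP9 and ADAM8 appear in macrophage-like cells with at most 1.35 CPM in any other compared class.

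The 3 TIMP genes had different distributions. TIMP1, an inhibitor of most secreted MMPs, was the highest member in macrophage-like cells, at 2676 CPM (2599 to 2755) in GDSS and 1987 CPM (1881 to 2097) in Yorkshire. In Yorkshire, satellite-like cells followed at 1954 CPM (1933 to 1976), an interval that overlaps that of macrophage-like cells, and in GDSS mural-like cells followed at 1477 CPM (1391 to 1567). FAP-like cells held 1384 and 1122 CPM. The Yorkshire cells that passed no gate, 16.8% of that library, had 2167 CPM, above every class. Glia-like cells had the lowest TIMP1 level of the 8 classes in both libraries, 53.6 and 128 CPM, where free RNA was estimated at 50.4 and 70.0 CPM.

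TIMP3, which binds the matrix and also inhibits ADAM17 and several ADAMTS proteases, was highest in the vessel wall. Mural-like cells had 643 CPM (587 to 703) in GDSS and 632 CPM (598 to 666) in Yorkshire, and endothelial-like cells 545 CPM (489 to 606) and 625 CPM (605 to 646). These levels overlap within each library, so neither class leads beyond its counting error. Tenocyte-like cells came next with 280 and 347 CPM. Macrophage-like cells had 3 TIMP3 UMIs in each library (1.77 and 4.55 CPM), against free RNA estimates of 1.54 and 2.96 CPM.

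TIMP4 was an endothelial gene here. Endothelial-like cells held 62.4 CPM (44.3 to 85.2) in GDSS and 96.2 CPM (88.5 to 104) in Yorkshire. No other compared class passed 2.83 CPM in either library.

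Among the MMPs, MMP2 was the leading stromal protease. Its level in FAP-like cells was 1065 CPM (1052 to 1077) in GDSS and 873 CPM (852 to 895) in Yorkshire. Tenocyte-like cells followed at 319 and 317 CPM, and the other classes lay between 12.1 and 138 CPM. After thinning every cell to 1500 UMIs, an MMP2 UMI was found in 75.9% (74.9 to 76.9) of the GDSS and 70.1% (67.9 to 72.3) of the Yorkshire FAP-like cells, and 90.7% and 89.8% before thinning. Macrophage-like cells had the lowest thinned shares of the 8 classes, 1.67% and 2.50%. The unthinned shares there were 11.2% and 10.0%, at median depths of 6208 and 7658 UMIs, against 2975 and 3479 in FAP-like cells. MMP14, the membrane protease that activates pro-MMP2, was led by the same class, at 81.7 CPM (78.2 to 85.3) and 92.0 CPM (85.1 to 99.3). The next class had 33.0 CPM in GDSS (macrophage-like) and 26.6 CPM in Yorkshire (glia-like).

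MMP9, or gelatinase B, had a separate source. It was at 90.2 CPM (76.5 to 106) in GDSS and 126 CPM (100 to 156) in Yorkshire macrophage-like cells, and at most 0.472 CPM in any other compared class. Its UMIs came from a minority of those cells: 7.53% (4.52 to 11.6) and 7.50% (2.80 to 15.6) at 1500 UMIs, and 19.8% and 18.8% unthinned. FAP-like cells had 0.0427% and 0.0580% at 1500 UMIs.

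Glia-like cells led MMP17 and MMP15. MMP17, which is held in the membrane by a lipid anchor, had 199 CPM (165 to 238) in GDSS and 81.1 CPM (62.4 to 104) in Yorkshire glia-like cells, and at most 2.83 CPM in any other compared class. MMP15, a transmembrane MMP, had 73.6 and 108 CPM there, followed by endothelial-like cells at 41.6 and 42.7 CPM. MMP28, or epilysin, was led by endothelial-like cells with 32.0 CPM (19.5 to 49.4) and 32.5 CPM (28.1 to 37.4), the same level in both libraries within counting error. MMP23B and MMP16 were led by tenocyte-like cells, MMP23B with 122 and 93.4 CPM and MMP16, a transmembrane MMP, with 45.4 and 56.7 CPM, ahead of FAP-like cells in both libraries. MMP11, or stromelysin 3, was spread over the classes and reached at most 21.7 CPM, in Yorkshire mural-like cells.

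MMP3, or stromelysin 1, was held by very few cells. Its 63 UMIs in GDSS came from 12 cells and its 73 in Yorkshire from 16 cells. The collagenase genes MMP13 and MMP8 were close to absent, MMP13 with 0 and 4 UMIs and MMP8 with 5 and 6. All 7 GDSS UMIs and all 3 Yorkshire UMIs of MMP12, the macrophage elastase, came from 1 cell in each library. In the RefSeq annotation of Sscrofa11.1, MMP7, MMP20, MMP27 and MMP8 follow each other on chromosome 9, as do MMP3, MMP12 and MMP13. Of these 7 neighbours, MMP27 was highest in FAP-like cells (12.4 and 8.10 CPM), with tenocyte-like cells next at 2.0 and 1.93 CPM, and MMP20 had no UMI.

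The sheddase genes ADAM10 and ADAM17 were found in every compared class. ADAM10, a main Notch and cadherin sheddase, had 76.8 CPM (56.6 to 102) in GDSS and 137 CPM (128 to 147) in Yorkshire endothelial-like cells, and 75.3 CPM (54.9 to 101) and 153 CPM (127 to 183) in glia-like cells. The order of these classes differed between the libraries and their intervals overlapped. ADAM17, which releases TNF and several EGF receptor ligands, was highest in glia-like cells at 68.6 CPM (49.2 to 93.1) and 50.7 CPM (36.2 to 69.0), overlapping the next class, macrophage-like cells at 53.6 CPM in GDSS and satellite-like cells at 48.6 CPM in Yorkshire. ADAM9 was spread over all classes, between 12.0 and 86.4 CPM over the 8 classes, with macrophage-like cells first in both libraries.

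The other ADAMs described were each led by the same class in both libraries. ADAM23, a catalytically inactive ADAM of nerve tissue, had 62 UMIs (104 CPM, 79.6 to 133) in GDSS and 110 UMIs (139 CPM, 115 to 168) in Yorkshire glia-like cells, and at most 1.54 CPM in the other compared classes. At 1500 UMIs, 14.3% of GDSS and 17.6% of Yorkshire glia-like cells had an ADAM23 UMI, against 0.0284% and 0.406% of FAP-like cells, and 19.9% and 26.4% against 0.0669% and 0.553% unthinned. ADAM12 was led by glia-like cells as well, with 63.6 and 34.2 CPM. ADAM15 was led by endothelial-like cells with 117 CPM (91.5 to 147) and 189 CPM (178 to 201), followed by FAP-like cells at 25.0 and 22.5 CPM. ADAM8, a leukocyte ADAM, was led by macrophage-like cells with 123 CPM (107 to 141) and 45.5 CPM (30.7 to 65.0). ADAM22, another inactive ADAM, and ADAM19 were led by FAP-like cells, ADAM22 with 43.3 and 49.9 CPM and ADAM19 with 45.4 and 41.6 CPM. The lead of ADAM19 in Yorkshire was small, since macrophage-like cells followed at 30.3 CPM. ADAM7, known from the epididymis, was led by mural-like cells on low counts, 35 UMIs in GDSS (47.1 CPM, 32.8 to 65.5) and 19 in Yorkshire (8.98 CPM, 5.40 to 14.0).

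ADAMTS5, an aggrecan and versican protease, was led by FAP-like cells with 138 CPM (134 to 143) in GDSS and 276 CPM (264 to 288) in Yorkshire, followed by mural-like cells at 72.6 and 96.4 CPM. ADAMTS4, which has the same kind of substrates, was led by mural-like cells with 756 CPM (695 to 821) and 577 CPM (545 to 610), followed by endothelial-like cells at 277 and 147 CPM. Cells left out because they passed gates that do not go together had 478 CPM in GDSS and 234 CPM in Yorkshire. They held 1809 of the 4786 GDSS and 1266 of the 3963 Yorkshire ADAMTS4 UMIs. At 1500 UMIs, 46.0% of GDSS (39.1 to 52.9) and 28.5% of Yorkshire (25.0 to 32.3) mural-like cells had an ADAMTS4 UMI, and 46.0% and 37.9% unthinned, against 0.270% and 0.691% of satellite-like cells thinned. ADAMTS15 was also led by mural-like cells (41.7 and 27.9 CPM), and so was ADAMTS12 (39.0 and 37.8 CPM), though FAP-like cells followed ADAMTS12 closely with 25.7 and 33.8 CPM. ADAMTS15 and ADAMTS8 are neighbours on chromosome 9 in the same annotation, and ADAMTS8 reached at most 10.8 CPM in any class.

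The procollagen N-proteinase genes ADAMTS2 and ADAMTS3 were led by tenocyte-like cells. ADAMTS2 had 93.3 CPM (80.4 to 108) and 104 CPM (88.3 to 121) there, and ADAMTS3 had 22.5 CPM (16.4 to 30.1) and 31.6 CPM (23.3 to 41.7). FAP-like cells held 56.1 CPM of ADAMTS2 in each library, while satellite-like and endothelial-like cells had at most 0.838 CPM.

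ADAMTS1, ADAMTS9 and ADAMTS20 were led by different classes in the 2 libraries. ADAMTS1, a versican protease of growing vessels, was highest in GDSS in glia-like cells (373 CPM, 326 to 426) and in Yorkshire in endothelial-like cells (432 CPM, 416 to 449). ADAMTS9 was highest in GDSS endothelial-like cells (110 CPM, 85.8 to 140) and in Yorkshire mural-like cells (104 CPM, 91.1 to 119). ADAMTS20, a versican protease, was held by muscle and glial cells. Myofibre-gene cells had 252 CPM (179 to 346) and 106 CPM (90.5 to 124), glia-like cells 88.7 and 137 CPM and satellite-like cells 60.2 and 45.5 CPM. No other compared class had over 6.4 CPM of ADAMTS20.

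Of the 5 ADAMTSL genes, FAP-like cells led 3 in both libraries, ADAMTSL1, ADAMTSL3 and ADAMTSL4. ADAMTSL3, which has no protease domain, had 91.8 CPM (88.2 to 95.6) in GDSS and 173 CPM (163 to 183) in Yorkshire FAP-like cells, followed by tenocyte-like cells at 39.4 and 67.6 CPM. ADAMTSL4, a binder of fibrillin microfibrils, had 41.2 and 49.4 CPM in FAP-like cells. ADAMTSL2, another fibrillin binder, was low everywhere, with 10.2 and 5.03 CPM in FAP-like cells.

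The libraries were then compared within each class, over features with at least 100 UMIs in both sums together, and a feature was counted as higher in a library from a 1.5-fold difference in CPM. In FAP-like cells 33 members entered. GDSS was at least 1.5-fold higher for 3 of the 33, where 6.22% of all features were, and Yorkshire for 11, where 18% of all features were. Over the 33 members the log2 of GDSS over Yorkshire had a median of -0.25, and over all features of -0.17. Scaling with TMM factors (trimmed mean of M-values) moved every FAP-like log2 ratio up by 0.24 and changed the split to 6 members higher in GDSS and 7 in Yorkshire, where 12.5% and 8.3% of all features then were.

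The FAP-like cells of the libraries lay largely in different clusters made without the members. Both libraries were clustered together without correction for library, and what separated their cells was not tested. Cluster 1 held 52.9% of the Yorkshire but 6.18% of the GDSS FAP-like cells, while clusters 6, 3 and 2 held 30.4%, 24.6% and 22.8% of the GDSS and 1.88%, 6.53% and 7.97% of the Yorkshire cells. Other classes were split unevenly too. Endothelial-like clusters 7 and 14 held 95 and 226 GDSS cells, against 73 and 1341 Yorkshire cells. Satellite-like clusters 8, 9 and 10 held 254, 243 and 278 against 800, 2038 and 4147, and glia-like clusters 11 and 12 held 381 and 76 against 237 and 148. Mural-like clusters 16 and 18 were split more alike, 286 and 77 against 621 and 180. Classes other than FAP-like were not weighted for this. Stromal states of FAP-like cells were gated on markers and are not these clusters. With equal weight for each stromal state, ADAMTS1, ADAMTS4, ADAMTS5 and ADAMTSL3 stayed at least 1.5-fold apart in the directions given next.

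ADAMTS1 had the largest difference, with 108 CPM in GDSS and 256 CPM in Yorkshire FAP-like cells, 2.38-fold (2.24 to 2.53). ADAMTS5 was 1.99-fold (1.88 to 2.10) and ADAMTSL3 1.88-fold (1.75 to 2.01) higher in Yorkshire. For ADAMTSL5 (4.8 against 10.9 CPM) and ADAMTS3 (3.54 against 7.82 CPM) the folds were 2.27 and 2.21. Both rested on few UMIs, 122 and 78 for ADAMTSL5 and 90 and 56 for ADAMTS3. The other members at least 1.5-fold higher in Yorkshire were ADAMTS7, ADAMTS15, ADAMTS17, ADAMTS19, ADAM10 and MMP16. Of these, ADAM10, MMP16, ADAMTS15 and ADAMTS19 fell short of 1.5-fold with TMM scaling, ADAMTS15, ADAMTS19 and ADAMTS7 with equal weight for each stromal state, and ADAMTS17, ADAMTS7 and ADAMTSL5 without the nerve-sheath state described below.

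GDSS was higher for ADAMTS4, with 80.5 CPM (77.1 to 84.1) against 44.1 CPM (39.4 to 49.3), 1.82-fold (1.62 to 2.06). ADAMTSL2 was 2.03-fold (1.43 to 2.96) and MMP27 1.54-fold (1.16 to 2.07) higher in GDSS. MMP27, a little studied MMP, stood at 0.50 in log2 without the nerve-sheath state, under the 1.5-fold limit. The aggrecanase genes ADAMTS4 and ADAMTS5 thus differed between the libraries in opposite directions within the same class. A set of 5 immediate-early and heat-shock genes (FOS, EGR1, ATF3, DNAJB1 and HSPA8), chosen after the data were seen as signs of cell handling, summed to 29021 CPM in GDSS and 14565 CPM in Yorkshire FAP-like cells. Its part in these results was not tested.

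The 2 most abundant members differed less. MMP2 had a log2 ratio of 0.29 and TIMP1 of 0.30 in FAP-like cells, both higher in GDSS and both under 1.5-fold. MMP14 (-0.17), ADAM17 (-0.14), ADAM9, ADAM22, ADAMTS2 and MMP11 had ratios near 0 that change sign with TMM scaling. Summed by family, ADAMTS genes had 459 CPM in GDSS and 743 CPM in Yorkshire FAP-like cells and ADAMTSL genes 168 and 253 CPM. MMP genes had 1266 and 1073 CPM and TIMP genes 1530 and 1325 CPM. The summed ADAM genes, at 213 and 239 CPM, had a log2 ratio of -0.17 that becomes 0.08 with TMM scaling. The directions of the other 4 sums in FAP-like cells were the same under both scalings.

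**Figure D2:**
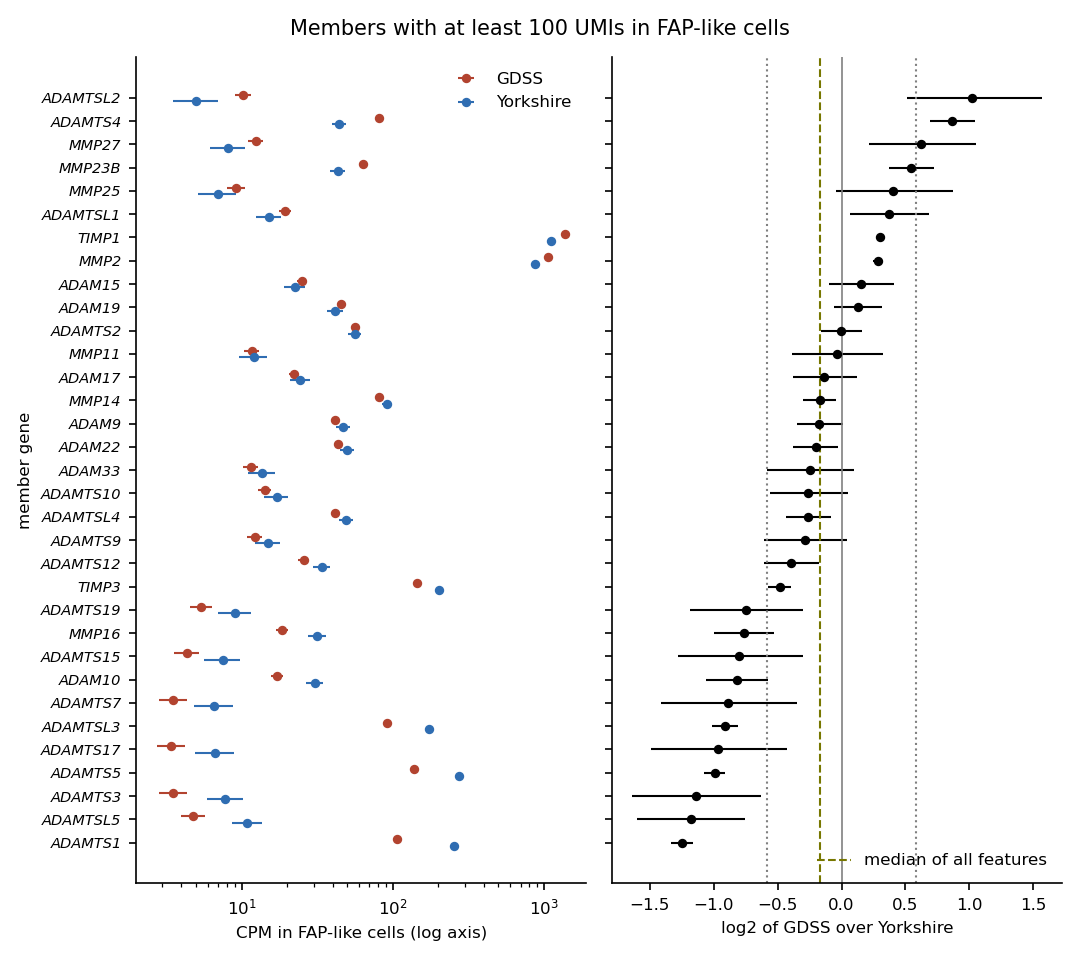
Left, level in FAP-like cells (CPM, log axis) of the 33 members with at least 100 UMIs in GDSS (red) and Yorkshire (blue), with exact Poisson 95% intervals. Right, log2 of GDSS over Yorkshire with exact 95% intervals for counting error, dotted lines at 1.5-fold and a dashed line at the median of all features (-0.17); ADAMTSL2 and ADAMTS4 lie farthest right, and ADAMTS1 farthest left.

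In the vessel wall ADAMTS1 was again higher in Yorkshire. Endothelial-like cells had 176 CPM in GDSS and 432 CPM in Yorkshire, 2.46-fold (2.03 to 3.0), and mural-like cells 175 and 324 CPM, 1.85-fold (1.53 to 2.25). Of 13 members in endothelial-like cells, Yorkshire was higher for 4 (ADAMTS1, ADAM10, ADAM15 and TIMP4), where 16.4% of all features were. GDSS was higher for 2, MMP2 and ADAMTS4, where 8.57% of all features were. The log2 ratio of ADAM15 was -0.45 after thinning to 1500 UMIs and that of TIMP4 -0.54 with at most 5% mitochondrial UMIs, both under the limit. MMP2 had 89.5 and 49.8 CPM there, with free RNA estimated at 19.0 and 7.02 CPM. ADAMTS4 had 277 and 147 CPM, 1.88-fold (1.58 to 2.21), but its log2 ratio of 0.91 was 0.20 after thinning to 1500 UMIs. That thinning also left out the shallower cells.

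Of 9 members in mural-like cells, TIMP1 was higher in GDSS, where 7.99% of all features were, with 1477 against 683 CPM, 2.16-fold (2.0 to 2.34). ADAMTS1 and ADAMTS9 were higher in Yorkshire, where 16.7% of all features were. The thinned share of mural-like cells with a TIMP1 UMI was 55.9% in GDSS and 40.5% in Yorkshire, and unthinned 60% and 60.1%. The set of 5 handling genes summed to 21218 and 13615 CPM in mural-like cells, to 15357 and 15278 CPM in endothelial-like cells and to 4761 and 10490 CPM in macrophage-like cells.

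In satellite-like cells the TIMP1 difference ran the other way. GDSS cells had 827 CPM (775 to 880) and Yorkshire cells 1954 CPM (1933 to 1976), 2.36-fold (2.22 to 2.52), and the thinned shares with a UMI were 34.9% and 56.1% (44.6% and 69.3% unthinned). Of 17 members, Yorkshire was higher for 6, where 21% of all features were: TIMP1, TIMP3, ADAMTS1, ADAMTS9, ADAM17 and MMP25. ADAMTS1 had 24.9 against 69.7 CPM, ADAM17 18.9 against 48.6 CPM, TIMP3 54.2 against 112 CPM and ADAMTS9 13.8 against 31.7 CPM, all over 2-fold. GDSS was higher for 2, MMP11 (14.6 against 6.98 CPM, from 17 GDSS UMIs) and ADAMTS10, where 13.1% of all features were. The intervals of MMP25 and ADAMTS10 included no difference.

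Myofibre-gene cells, of which GDSS had 77, gave 4 members. ADAMTS20 was 2.37-fold (1.62 to 3.40) higher in GDSS, where 10.2% of all features were, on 38 GDSS UMIs. TIMP1 was higher in Yorkshire, where 20.6% of all features were, with 824 against 1332 CPM. Its log2 ratio was -0.69, and -0.35 without the doublet filter.

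Of 9 members in glia-like cells, GDSS was higher for 2, where 8.82% of all features were, and Yorkshire for 5, where 21% of all features were. MMP17 was 2.46-fold (1.80 to 3.38) higher in GDSS, and ADAMTS1 1.64-fold (1.34 to 2.0). With at most 5% mitochondrial UMIs the log2 ratio of ADAMTS1 went from 0.71 to -0.34, so its direction in glia-like cells depended on that limit. ADAM10 was 2.03-fold (1.43 to 2.93) and TIMP3 2.31-fold (1.59 to 3.43) higher in Yorkshire, followed by ADAMTS20 at 1.54-fold (1.10 to 2.18). TMM scaling moved the log2 ratios of glia-like cells up by 0.19, which took ADAMTS20 to -0.43, under the limit. MMP2 had 43.5 and 138 CPM and TIMP1 53.6 and 128 CPM in GDSS and Yorkshire. The GDSS values lay close to their free RNA estimates of 29.5 and 50.4 CPM.

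In macrophage-like cells ADAM8 was 2.71-fold (1.84 to 4.11) higher in GDSS, 1 of 5 members, where 10.8% of all features were. MMP9, TIMP1, ADAM9 and ADAM17 differed by less than 1.5-fold, and no member was higher in Yorkshire, where 13.5% of all features were. ADAM28, a leukocyte ADAM under the limit of 100 UMIs, had 26 GDSS and 2 Yorkshire UMIs in these cells. In tenocyte-like cells TIMP1 was 1.64-fold (1.49 to 1.81) higher in GDSS, 1 of 10 members, where 12.5% of all features were. ADAMTS1, ADAMTSL3 and ADAMTSL4 were higher in Yorkshire, where 12% of all features were. With clusters in place of gates the TIMP1 ratio in tenocyte-like cells was 0.48 in log2.

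Over the classes, ADAMTS1 was measured in 6 and was at least 1.5-fold higher in Yorkshire in 5 of them. ADAM10 was measured in 4 and higher in Yorkshire in 3. ADAMTS4 was measured in 3 and was at least 1.5-fold higher in GDSS in 2, with a log2 ratio of 0.39 in mural-like cells. TIMP1, measured in all 8, was higher in GDSS in 2 and in Yorkshire in 3.

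**Figure D3:**
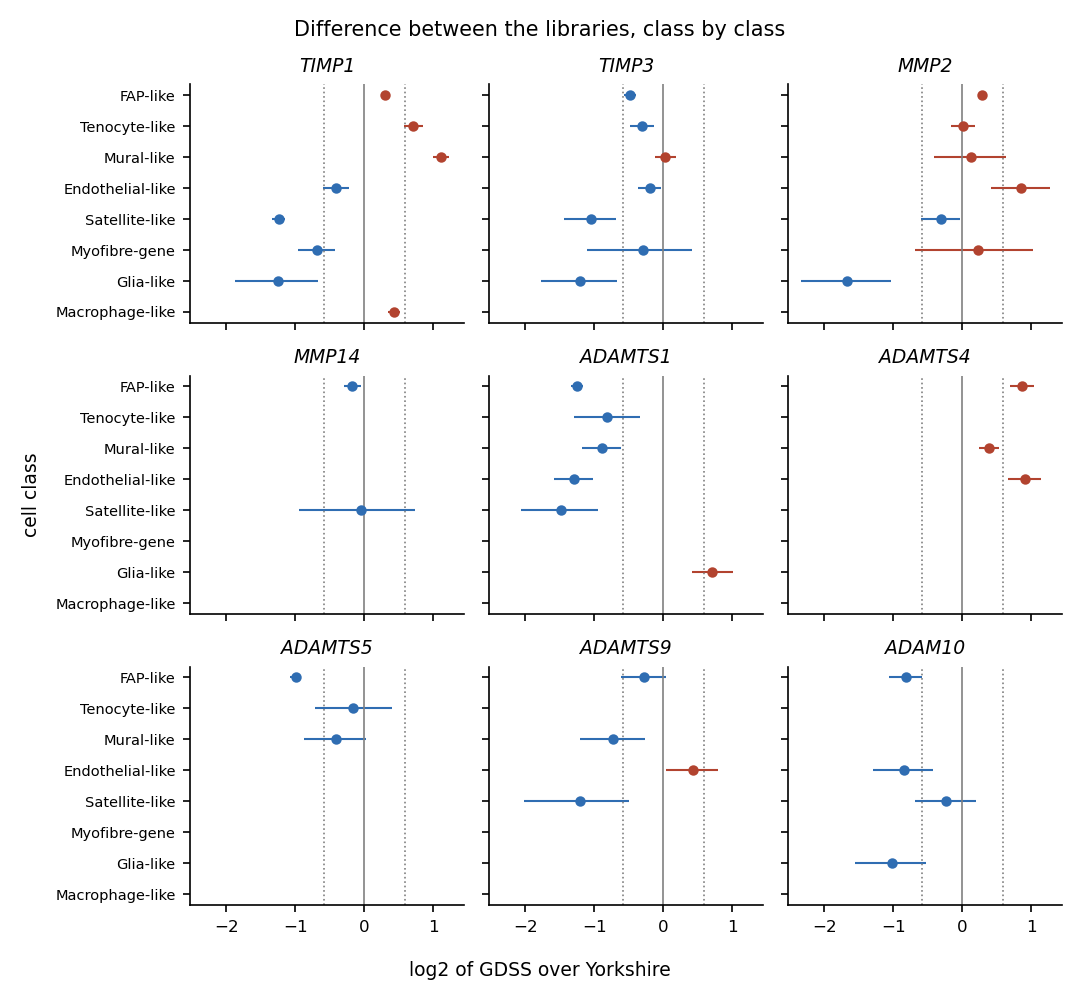
log2 of GDSS over Yorkshire in each cell class for 9 members (red, higher in GDSS; blue, higher in Yorkshire), with exact 95% intervals for counting error, a solid line at 0 and dotted lines at 1.5-fold. ADAMTS1 lies left of the line in every class drawn except glia-like cells, ADAMTS4 lies right of it in all 3, and TIMP1 spans from -1.26 in glia-like to 1.11 in mural-like cells; classes under 100 UMIs have no point.

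Within FAP-like cells, 8 stromal states were gated on markers that are no members, and each state was set against the other FAP-like cells of the same library. A member was counted only where it differed at least 1.5-fold the same way in both libraries. In the PI16 and CCL26 state (1805 GDSS and 309 Yorkshire cells), whose markers PI16 and DPP4 mark adventitial stroma, 6 of 29 members were higher, where 1.91% of all features were, and none lower, where 1.59% were. ADAM15 had 41.0 CPM in GDSS and 42.4 CPM in Yorkshire, against 18.8 and 17.7 CPM in the other FAP-like cells. ADAMTS5 had 210 against 111 CPM in GDSS and 536 against 213 CPM in Yorkshire. MMP27, with 17.2 against 10.6 CPM and 15.8 against 6.24 CPM, ADAMTSL4, ADAMTSL5 and MMP16 were the others, and the Yorkshire interval of ADAMTSL5 included no difference. Median depth was 3602 and 4150 UMIs in this state, and 2813 and 3352.5 in the other FAP-like cells.

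The THBS4 and KERA state (868 and 259 cells) showed a different set. MMP23B was higher there, with 98.8 against 57.9 CPM in GDSS and 71.4 against 37.7 CPM in Yorkshire, 1 of 25 members where 2.09% of all features were. ADAM22, ADAMTS4 and ADAMTS5 were lower, where 1.82% of all features were. ADAMTS5 had 85.5 against 146 CPM and 144 against 302 CPM. In the HHIP and ART4 state (196 and 72 cells) 3 of 13 members were higher, where 3.92% of all features were. These were ADAM15 (53.6 against 24.0 and 54.8 against 20.7 CPM), MMP23B (139 against 60.6 and 76.8 against 41.5 CPM) and ADAMTS2 (92.0 against 54.9 and 96.0 against 54.0 CPM). None of the 13 was lower, where 2.1% of all features were.

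The FMO1 and AOX1 state held 7.94% of the FAP-like cells in GDSS and 25.2% in Yorkshire. Of 20 members 2 were lower there, where 1.51% of all features were, and none higher, where 0.729% were. ADAMTSL4 was 2.13-fold and 2.03-fold lower and TIMP3 1.75-fold and 1.55-fold lower than in the other FAP-like cells. ADAM19, with 64.7 against 43.9 CPM in GDSS and 76.6 against 30.8 CPM in Yorkshire, was 1.47-fold and 2.49-fold higher and missed the limit in GDSS. ADAM19 was higher in the small MME and FMO2 state, 1 of 8 members where 1.13% of all features were, with 71.9 against 44.9 CPM and 73.0 against 40.9 CPM, though the Yorkshire interval included no difference. No member was lower in that state, where 0.772% of all features were. In the IRF8 and PBK state ADAM19 and ADAM22 were higher (2 of 14, where 1.66% of all features were) and MMP23B lower (where 0.819% were), but the Yorkshire library had 20 such cells and all 3 Yorkshire intervals included no difference. In the chemokine state MMP25 was higher, 1 of 21 members where 2.94% of all features were, with 52 GDSS and 6 Yorkshire UMIs, and none was lower, where 1.56% were. The Yorkshire interval of MMP25 included no difference. ADAMTS4 was 2.41-fold higher in this state in GDSS (165 against 68.3 CPM). In Yorkshire it was 1.47-fold higher, under the limit, with an interval that included no difference.

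The nerve-sheath state, gated on CLDN1, ITGB4 and related perineurial markers (90 and 125 cells), stood apart from other stroma over all features. TIMP1, TIMP3, ADAM10 and ADAMTS12 were higher there, 4 of 12 members, where 18.8% of all features were. TIMP1 had 2418 CPM in GDSS and 3064 CPM in Yorkshire, against 1368 and 934 CPM in the other FAP-like cells, and TIMP3 had 260 and 339 CPM against 143 and 189 CPM. The GDSS intervals of ADAM10 and ADAMTS12 included no difference. ADAMTS5 was lower in both libraries, where 2.91% of all features were, with 79.1 against 139 CPM and 124 against 290 CPM. ADAMTS4 went opposite ways, with 22.3 against 81.5 CPM in GDSS (9 UMIs) and 108 against 38.0 CPM in Yorkshire (68 UMIs). State calls depended on how cells were assigned: 17 of the 25 were found again in clusters of FAP-like cells made without the members, 16 when a cell entered every state whose gate it passed, and 13 with gates 1 marker stricter. The minimum of 50 UMIs in the state was applied again each time, so a call could also drop out through it. The states overlapped, and 24.3% to 79.2% of the cells of a state also passed the gate of another. Both ends of that range came from the THBS4 and KERA state in GDSS and the HHIP and ART4 state in Yorkshire, and these states fell into 1 cluster.

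**Figure D4:**
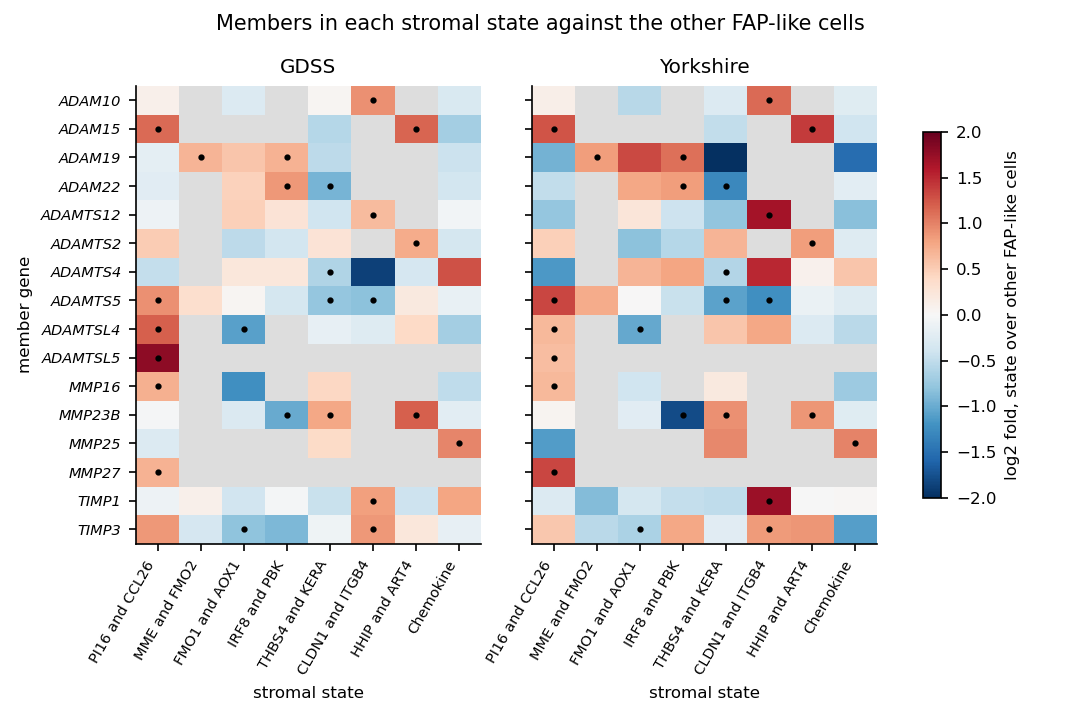
log2 fold of 16 members in each stromal state over the other FAP-like cells of the same library, GDSS on the left and Yorkshire on the right, red for higher and blue for lower; dots mark members at least 1.5-fold away in the same direction in both libraries and grey cells were under the UMI minimum. The PI16 and CCL26 column holds 6 dots, the THBS4 and KERA and nerve-sheath (CLDN1 and ITGB4) columns hold dots in both directions, and ADAMTS4 in the nerve-sheath column is blue in GDSS and red in Yorkshire.

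Other genes of extracellular proteolysis were read from a list of 48 genes, of which 44 have a symbol in the files and 34 had at least 100 UMIs in FAP-like cells. GDSS was at least 1.5-fold higher for 4 of the 34 and Yorkshire for 6, against the 6.22% and 18% of all features given above. TMM scaling changed the 4 to 7 and the 6 to 5, where 12.5% and 8.3% of all features then were. PLAU, or urokinase, had 508 CPM in GDSS and 196 CPM in Yorkshire, 2.59-fold (2.45 to 2.74), and its receptor PLAUR 118 and 76.0 CPM. PLAT, the tissue-type activator, went the other way with 4.33 and 11.5 CPM. PCOLCE, the enhancer of procollagen C-proteinase, had 2909 and 1843 CPM, 1.58-fold (1.55 to 1.61).

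Inhibitors other than the TIMPs were not uniform either. RECK, a membrane-anchored MMP inhibitor, had 18.9 and 23.3 CPM, within 1.5-fold. SFRP1, a Wnt antagonist reported to inhibit ADAM10, had 12.5 and 97.8 CPM, 7.81-fold (6.83 to 8.94) higher in Yorkshire, and SPOCK3 had 1.69 and 9.50 CPM. Of the substrates, 2 of 10 were higher in Yorkshire, a share near the 18% of all features, and none in GDSS. These were the fibrillins FBN1 (158 and 443 CPM) and FBN2 (14.7 and 44.8 CPM). VCAN, or versican, the shared substrate of ADAMTS1, ADAMTS4, ADAMTS5, ADAMTS9 and ADAMTS20, had 142 and 204 CPM, 1.43-fold (1.35 to 1.52) higher in Yorkshire and under the limit. Collagen genes COL1A1, COL1A2 and COL3A1 differed by at most 1.19-fold between the libraries. All of them are markers of the FAP-like gate, so the cells of both libraries were partly chosen for having them. Among other metalloproteinases, ANPEP was 1.77-fold (1.46 to 2.13) higher in Yorkshire, though its log2 ratio of -0.82 became -0.58 with TMM scaling, under the limit, while BMP1, a procollagen C-proteinase, differed by 1.06-fold (0.957 to 1.18).

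Outside FAP-like cells, PLAU was at least 1.5-fold higher in GDSS in myofibre-gene, endothelial-like and mural-like cells and higher in Yorkshire in satellite-like cells, with 76.5 against 130 CPM.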

How the data were processed

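The deposited matrices hold raw UMI counts per gene and barcode, made by the authors. The submitters' processing notes name Cell Ranger and R 3.5.2, and the software version in the matrix header is 3.1.0 per the file headers. Per the labels' protocols, red and dead cells were removed and a 10x Genomics v2 kit was used. The genome build was not given in the sources used here. Every deposited barcode had at least 500 UMIs.

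Barcodes with at least 500 genes and at most 10% mitochondrial UMIs were kept, and cells with a scrublet score of at least 0.3 were removed (467 GDSS and 1133 Yorkshire), because the automatic limit marked 1 GDSS cell. A cell entered a class when it showed a minimum number of the class's markers: 6 of 12 for FAP-like, 4 of 12 for endothelial-like, mural-like and macrophage-like, 3 of 9 for glia-like, 3 of 5 for tenocyte-like and lymphatic, 2 of 9 for satellite-like and 3 of 10 for myofibre genes. The minima were set after the marker counts were seen. Tenocyte-like took precedence over FAP-like, lymphatic over endothelial-like and myofibre over satellite-like. Cells passing gates of other pairs (550 GDSS and 674 Yorkshire) and cells passing none (839 and 2132) were left out, as were 10 and 43 lymphatic cells. A stromal state needed 2 markers. A cell passing several state gates went to the state whose detected markers had the largest summed rarity. Rarity was minus log10 of the share of FAP-like cells with the marker.

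Counts were summed per class and library and divided by the class total. With 1 library per breed there was no test. Members entered a comparison with at least 100 UMIs over both sums and were counted from 1.5-fold. The text names members with at least 20 CPM in their leading class, members at least 2-fold apart, a fixed set (TIMP1, TIMP3, TIMP4, ADAM10, ADAM17, MMP2, MMP9, MMP14, ADAMTS1, ADAMTS4 and ADAMTS5), up to 3 members per state and up to 4 genes per part of the proteolysis list. Others were named after their values were seen. The members, lists, markers and rules were chosen with earlier results of these data known. The steps were tested on simulated data. Python 3.11.15, scanpy 1.11.5, scipy 1.17.1 and, for TMM factors, R 4.3.3 with edgeR 4.0.16 were used. Alternatives changed the classes, the filters, free RNA, scaling, UMI minimum, fold, depth and state weights. One gene of the proteolysis list is counted but not reported by name here.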

Additional observations from a re-analysis of the deposited data

Results flagged for a closer look

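Members whose libraries differed at least 1.5-fold in opposite directions in different classes are given here; none of these differences between classes was tested, since each class has 1 sum per library. TIMP1 had a log2 ratio of GDSS over Yorkshire of 1.11 in mural-like and -1.26 in glia-like cells, and the glia-like GDSS level of 53.6 CPM lay beside a free RNA estimate of 50.4 CPM. MMP2 had 0.85 in endothelial-like and -1.67 in glia-like cells, where the GDSS level was 43.5 CPM and free RNA was estimated at 29.5 CPM. ADAMTS1 had 0.71 in glia-like and -1.48 in satellite-like cells, and the glia-like value changed sign with at most 5% mitochondrial UMIs. ADAMTS20 had 1.25 in myofibre-gene and -0.62 in glia-like cells, and the glia-like value was -0.43 with TMM scaling, under the limit.

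Stromal states gave a pair of members on opposite sides of the other FAP-like cells in the libraries. ADAMTS4 had a log2 fold of -1.87 in the GDSS and 1.5 in the Yorkshire nerve-sheath state, on 9 and 68 UMIs. TIMP3 had -0.89 in the GDSS and 0.77 in the Yorkshire IRF8 and PBK state, the latter from 20 cells. These differences were not tested either.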

How the results depend on the processing

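No paired analysis was possible because each breed had 1 library, and no replicate could be left out. Of the 100 member and class pairs compared over the 8 classes, 13 were counted as higher in GDSS and 32 in Yorkshire. By class, 6.22% to 13.1% of all features were higher in GDSS and 12% to 21% in Yorkshire. Of the 45 member differences, 28 stayed at least 1.5-fold under every alternative that gave them a value. The other UMI minima and the fold of 2 leave the ratios unchanged, so they could not move any of them. A difference under the minimum of a setting had no value there and was not counted as lost. The 1 that turned was ADAMTS1 in glia-like cells, at -0.34 with at most 5% mitochondrial UMIs. With clusters made without the members in place of gates, 42 of the 45 were found again, with stricter gates 36, with at most 5% mitochondrial UMIs 33 and with cells thinned to 1500 UMIs 25. In FAP-like cells the count higher in GDSS was 3, and became 6 with TMM factors, median-of-ratios factors or a minimum of 20 UMIs, 1 with a minimum of 500 UMIs or a fold of 2, and 7 with a minimum of 1 UMI. The count higher in Yorkshire was 11, and became 7 with either scaling, 5 with a minimum of 500 UMIs, 27 with 1 UMI, 3 with a fold of 2 and 7 with cells thinned to 1500 UMIs. Over all classes, the 13 became 20 with clusters, 8 with stricter gates, 33, 4 and 137 with minima of 20, 500 and 1 UMIs and 6 with a fold of 2, and the 32 became 16 and 97 with minima of 500 and 1 UMIs, 13 with a fold of 2 and 20 when thinned. Fewer or more features entering set the counts under other minima. Entry also changed with clusters, stricter gates, other filters and thinning, where the minimum was applied again. The cause of the changes under settings other than the minima was not tested. State calls went from 25 to 49 with clusters, where the THBS4 and KERA and the HHIP and ART4 states shared 1 cluster whose calls counted for each. The log2 ratio of the summed MMP genes in FAP-like cells went from 0.24 to 0.28 with clusters, and that of the TIMP genes from 0.21 to 0.13 with clusters, 0.17 with stricter gates, 0.17 without the doublet filter and 0.12 with at most 5% mitochondrial UMIs. Shares vary with depth, and the thinned shares also leave out cells shallower than the thinning depth. MMP2 in FAP-like cells went from 75.9% and 70.1% to 90.7% and 89.8% unthinned and 63.3% and 58.2% at 1000 UMIs. ADAMTS4 in mural-like cells went to 37.9% unthinned in Yorkshire, and to 30.8% and 23.2% at 1000 UMIs. MMP9 in macrophage-like cells went to 19.8% and 18.8% unthinned. The proteolysis genes higher in GDSS went from 4 to 7 with TMM factors. TMM also moved the median of all features by -0.18 in myofibre-gene, 0.19 in glia-like and 0.13 in macrophage-like cells, and by under 0.1 in the other classes apart from FAP-like. Counts of 20 to 40 UMIs, as for ADAM17 and ADAMTS1 in GDSS satellite-like cells, leave wide intervals.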
